A study of Mus musculus with 8 samples.

Results

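Cytosolic ribosomal protein genes encode the proteins of the ribosome that translates messenger RNA in the cytoplasm. The set described here comprised 51 such genes, given by name, of the 21883 protein-coding genes on chromosomes 1 to 19, X and Y of the gene table. It held 28 genes of the large subunit, 20 of the small subunit and 3 of the P-stalk (Rplp0, Rplp1 and Rplp2), the arm of the large subunit that recruits translation factors. The genes lay on 18 chromosomes. They were taken here as promoters that are active in nearly every cell, to show how far 2 lists of accessible regions differ at such promoters.

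Open chromatin was mapped in MIN6 cells by ATAC-seq, in which a transposase inserts sequencing adapters where DNA is free of nucleosomes. MIN6 is an established cell line from a mouse insulinoma that makes insulin and stands in for beta cells, and its genotype is labelled WT in both groups. The cells were transfected for 48 hours with Lipofectamine 3000, a lipid reagent, 4 libraries with the plasmid pcDNA 3 Empty Vector and 4 with pGloMyc-Klf4, which carries the zinc finger transcription factor Klf4. The study asked how misexpressed Klf4 changes accessibility across the genome.

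The series' text calls the 4 libraries of a plasmid biological replicates, but the values used here came from 1 merged list of accessible regions (peaks) for each plasmid. There was therefore no spread between replicates, and no difference below was tested. All cells were of 1 line, and the share of cells that took up plasmid is not given. Read depth is unknown from these lists. The empty vector list held 100099 peaks on the chromosomes used and the Klf4 list 128538. As a check of the label, all 10 listed beta cell genes (among them Ins1, Ins2 and Pdx1) had a peak in their window in both lists. A window peak is common, though, and was also found for 2 of 6 acinar cell genes and 3 of 4 macrophage genes in each list, for 4 of 4 mesenchyme genes, and for 2 and then 3 of 3 endothelial genes. A start peak was found in 6 of the 7 beta cell genes with an annotated start in the empty vector list and in 5 of 7 in the Klf4 list. It was found in 0 and 1 of 6 acinar, 0 and 0 of 2 mesenchyme, 1 and 1 of 2 macrophage and 0 and 1 of 1 endothelial genes. The lists hold no measure of the Klf4 protein or transcript.

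Each ribosome contains, with few exceptions, 1 copy of each ribosomal protein, and their genes are transcribed at high and matched rates. In mammals these genes typically start transcription at a C within a stretch of pyrimidines (C or T), so that the mRNA begins with a 5′ terminal oligopyrimidine tract, the element through which mTOR signalling controls their translation. Their promoters are short, mostly lack a TATA box and are often bound by ETS family factors such as GABP.

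Promoter sequences from RefSeq (GRCm38.p6, the assembly also called mm10) were found for 41 of the 51 genes. The following stretches run from 100 bases before to 25 bases after an annotated start, 5′ to 3′ on the gene's strand. Rpl37 and Rps19 had the most significant start peaks of the empty vector list among these 41 genes, and Rpl35 the least significant. Rps6 and Rpl38 were added after their letters were seen, because they show the pyrimidine stretch at the start together with the ETS core. Capitals mark the longest run of C and T near the start where it falls inside the stretch, the ETS core CCGGAAG and the palindrome of TCTCG followed by its reverse complement.
Rpl37 (chr15:5116513-5116637, plus strand): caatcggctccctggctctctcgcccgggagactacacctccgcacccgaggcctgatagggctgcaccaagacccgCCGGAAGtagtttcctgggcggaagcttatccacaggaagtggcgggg
Rps19 (chr7:24884492-24884616, plus strand): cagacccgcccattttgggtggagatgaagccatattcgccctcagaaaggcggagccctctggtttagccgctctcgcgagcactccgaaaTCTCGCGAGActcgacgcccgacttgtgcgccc
Rpl35 (chr2:39005107-39005231, minus strand): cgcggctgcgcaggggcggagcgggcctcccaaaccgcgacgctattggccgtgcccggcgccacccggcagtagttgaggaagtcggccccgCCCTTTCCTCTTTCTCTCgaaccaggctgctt
Rps6 (chr4:86857343-86857467, minus strand): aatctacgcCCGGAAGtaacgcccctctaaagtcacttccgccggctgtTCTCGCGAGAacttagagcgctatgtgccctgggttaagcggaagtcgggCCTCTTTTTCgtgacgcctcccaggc
Rpl38 (chr11:114668480-114668604, plus strand): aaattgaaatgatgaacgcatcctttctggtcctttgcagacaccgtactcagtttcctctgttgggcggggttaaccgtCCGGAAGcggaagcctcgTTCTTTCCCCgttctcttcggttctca

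A run of at least 8 C or T on the gene's strand, within 50 bases of a start, was present in 35 of the 41 genes (85.4%), against 39.2% of all 17491 protein-coding genes with an annotated start. The same search for runs of A or G found 10 genes (24.4%), against 40.3%. In Rpl35 the run was 18 bases long, and in Rpl7a, another large subunit protein, it was 21 bases long, the longest of the set. Some genes have several annotated starts, 7 of them in this set. Counted by start, 39 of 49 starts (79.6%) had the C or T run, against 35.4% of all starts. The annotated first base was C or T at 23 of these 49 starts (46.9%), against 23.4% of all starts.

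The ETS core, searched on both strands in the 300 bases from 250 before to 50 after each start, was found in 16 of the 41 genes (39.0%), against 12.9% of all genes. The palindrome was found in 5 genes (12.2%), Rpl10a, Rpl12, Rps6, Rps19 and Rps28, against 0.755%. ATGGCGG, the core bound by YY1, was found in 7 genes (17.1%), against 6.05%. For letters of the kind bound by KLF factors the shares lay closer together. CACCC was present in 24 genes (58.5%) against 61.7%, and CCNCNCCC, with which CACCC can overlap, in 26 genes (63.4%) against 58.7%. The GC box GGGCGG was present in 25 genes (61.0%) against 49.2%. TATAAA was found in 4 genes (9.76%), Rpl22, Rplp0, Rps2 and Rps28, against 14.8%. CCAAT was found in 13 genes (31.7%), against 42.3%. The E box CACGTG was found in 6 genes (14.6%), against 8.91%, and the NRF1 pattern GCGCATGC in 2 (4.88%), against 3.93%. The median GC content of the 300 bases, averaged over a gene's starts, was 57% for these genes and 56.3% for all genes. The number of CG pairs, taken at the start with the most, differed more, with medians of 22 and 15. All genes here include those without a start peak, and shares among accessible promoters alone were not counted. These matches describe letters only. Whether any factor binds there was not tested.

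**Figure D1:**
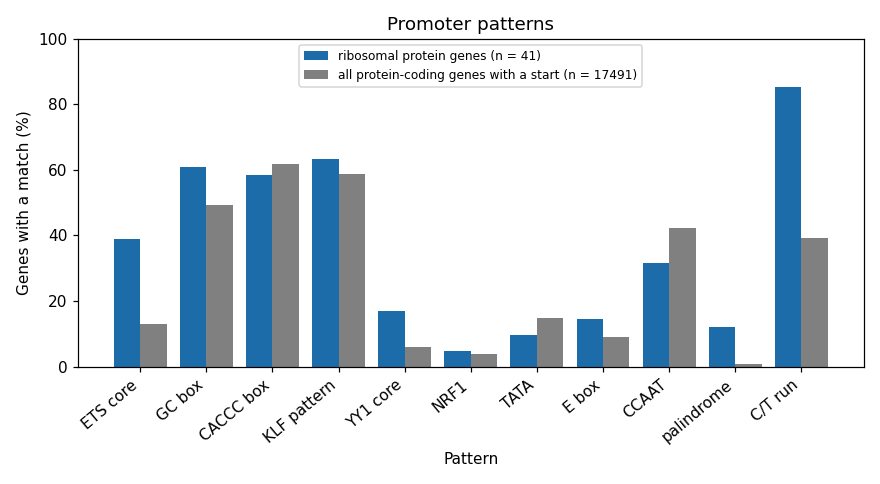
Share of genes (%) whose 300 base promoter holds each pattern, and, for the C/T run, a run of at least 8 C or T within 50 bases of the start. Blue bars are the 41 ribosomal protein genes with an annotated start, grey bars all 17491 protein-coding genes with one. The C/T run (85.4% against 39.2%) and the ETS core (39.0% against 12.9%) stand apart, while the shares with the CACCC box and the KLF pattern lie closer together. The grey bars include genes without a start peak.

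The ribosomal protein genes were accessible at their starts with both plasmids. Every one of the 51 genes had at least 1 peak over its body or the 5 kb on either side in both lists, against 79.4% of all protein-coding genes with the empty vector and 82.3% with Klf4. All 41 genes with an annotated start had a peak in the window from 250 bp before to 50 bp after it in both lists, against 60.8% and 66.9% of all genes with an annotated start. For the other 10 genes the tables gave no start or strand, and a peak within 500 bp of either gene end was counted instead. Such a peak was present for 9 of the 10 in both lists, against 61.4% and 69.9% of genes of that kind. Below, the peak counted in this way is called the start peak for these 9 genes as well.

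Rpl17, a protein near the peptide exit tunnel of the large subunit, was the exception. Its body lies at chr18:74998978-75003381, and its nearest peaks, at chr18:75000072-75001082 with the empty vector and chr18:75000176-75001075 with Klf4, were inside the body and more than 500 bp from either end. Their −log10 q values, the authors' measure of peak significance, were 64.7 and 62.4. Rpl17 was thus accessible in both lists, but at a place the end-based rule does not count.

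The start peaks were among the most significant regions of their lists. With the empty vector their −log10 q ran from 46.2 to 290.9 over 50 genes, with a median of 107.8, and with Klf4 from 31.3 to 267.0, with a median of 91.9. The percentile of a start peak, the share of peaks of its own list with a lower −log10 q, ran from 85.2 to 99.6 with the empty vector and from 85.6 to 99.8 with Klf4. Significance was not compared between the lists, because it depends on their depth and number of peaks. The start peaks of all protein-coding genes that had one lay at a median percentile of 91.7 and 92.7, and those of the 41 ribosomal protein genes with an annotated start at 94.5 and 96.2.

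In the small subunit, Rps29, a small zinc-binding protein, had the highest value of the set. Its peak had a −log10 q of 290.9 with the empty vector and 267.0 with Klf4, and a width of 1220 and 1219 bp. Rps19, which is needed to mature the small subunit and is mutated in Diamond-Blackfan anaemia, followed with 262.0 and 199.0. At the other end of the empty vector list stood Rps15, a protein of the small subunit's head, with 52.9 and 46.7, and Rps18 with 53.6 and 45.3. In the Klf4 list the lowest small subunit gene was Rps24, with 42.0. Each of the 4 genes named first held a place near the same end of the order in both lists.

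In the large subunit, Rpl37 had a −log10 q of 268.4 with the empty vector and 217.0 with Klf4. Rpl15 had 222.5 and 145.1. The lowest values of the empty vector list belonged to Rpl35, which sits beside the exit tunnel, with 46.2 and 34.9, to Rpl4, whose loop lines the tunnel, with 47.8 and 31.3, and to Rpl6 with 51.9 and 45.7. In the Klf4 list Rpl18, with 34.9, was as low as Rpl35. Even these lowest start peaks lay above the 85th percentile of their list. Rpl5 and Rpl11, which bind 5S rRNA and, when free, the p53 regulator Mdm2, lay in the middle of the set. Rpl5 had 110.1 and 105.1, and Rpl11 had 98.2 and 80.1.

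The 3 P-stalk genes all lay above the set's median in both lists. Rplp0, the base of the stalk, had 218.9 with the empty vector and 188.8 with Klf4. Rplp2 had 139.0 and 112.8, and Rplp1 had 117.7 and 112.3. Across the whole set the order was much alike between the lists, with 4 of the 5 highest and 9 of the 10 highest genes in common. Spearman's rho between the lists was 0.953 over 50 genes, as a description, since both lists come from the same loci and the same line.

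**Figure D2:**
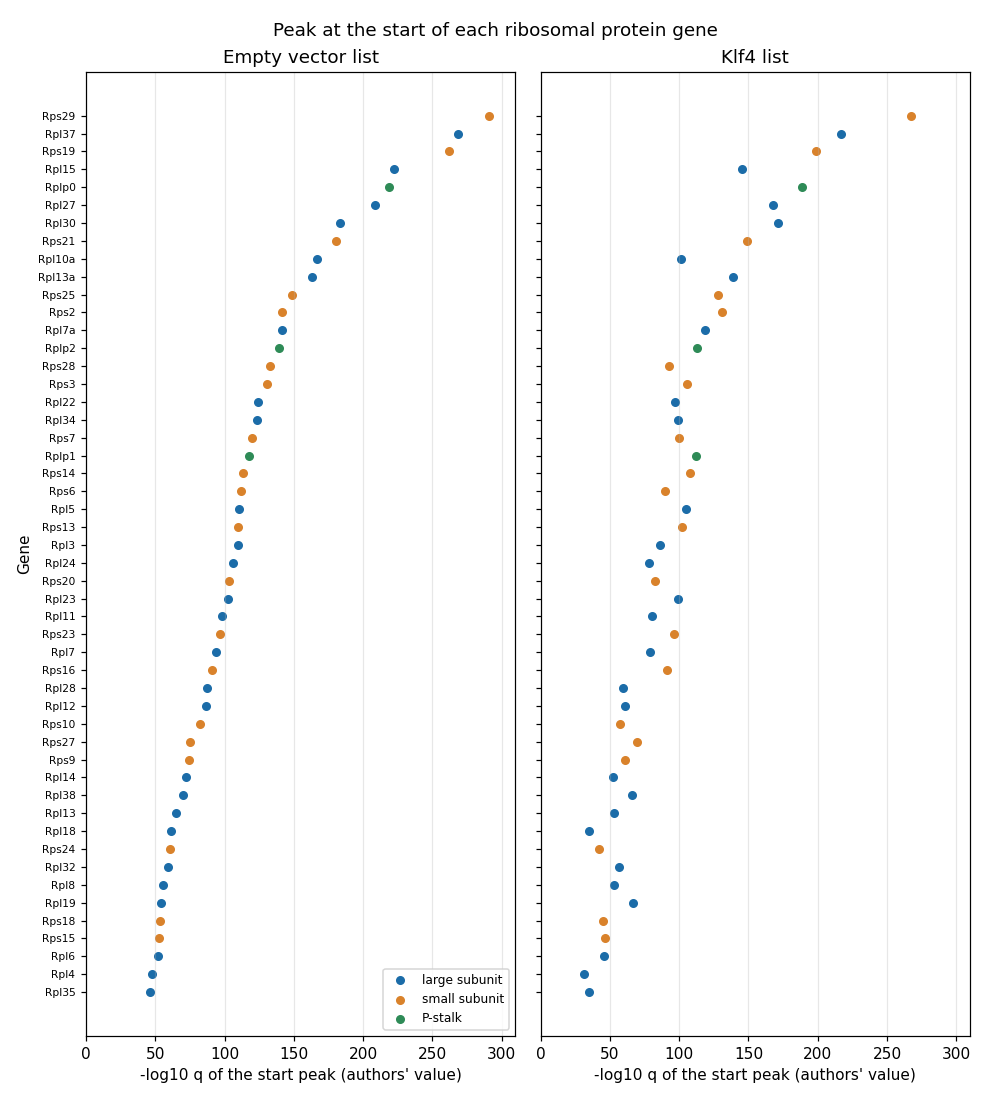
The −log10 q of the start peak (horizontal axis, authors' value) of 50 ribosomal protein genes, in the empty vector list at left and the Klf4 list at right, sorted by the empty vector value and coloured by ribosomal subunit. Rps29 is highest in both lists, at 290.9 and 267.0, and no gene lies at 0. Values of the 2 panels depend on the depth of each list and are not to be compared across panels.

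Start peaks were of similar width with both plasmids. Their median width was 1045 bp under empty vector and 1037.5 bp under Klf4, with ranges of 648 to 2108 bp and 671 to 2199 bp. The log2 ratio of widths, Klf4 over empty vector, had a median of -0.0028 and ran from -0.37 (Rpl19) to 0.36 (Rpl38). The peak was wider with Klf4 in 24 genes and narrower in 26. Among the 41 genes with an annotated start, 0 were at least 1.5 times wider and 0 at least 1.5 times narrower, against 7.05% and 2.28% of all genes with a start peak in both lists. Such differences were rarer among other genes whose empty vector start peak had a −log10 q inside the range of the set. Of 7195 such genes with a start peak in both lists, 240 were wider and 78 narrower.

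The extremes show the size of these differences. Rpl19, which forms part of a bridge to the small subunit, had a start peak of 1410 bp under empty vector and 1090 bp under Klf4. Rpl38, a protein whose loss in mice affects the axial skeleton, had 1486 and 1906 bp, and Rpl12, a neighbour of the P-stalk base, had 930 and 1188 bp. The start peaks reached a median of 473 bp before and 543 bp after the annotated start under empty vector, and 436 and 531 bp under Klf4. They reached farther after the start than before it in 22 of 41 genes in each list.

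**Figure D3:**
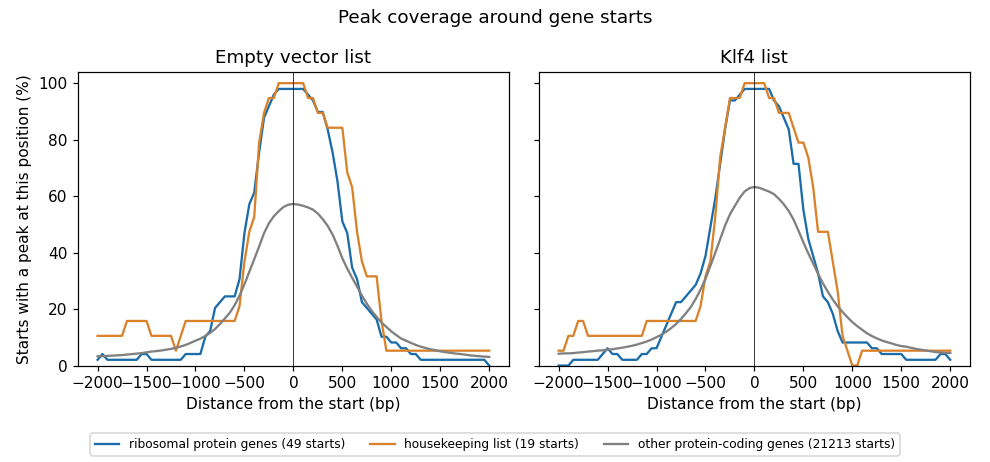
Share of annotated starts (%) with a peak at each distance from the start (bp, negative before the start), for 49 starts of ribosomal protein genes, 19 starts of a housekeeping list and 21213 starts of other protein-coding genes, in the empty vector list at left and the Klf4 list at right. At the start itself the ribosomal protein genes reach 98.0% in both lists, while the other genes reach 57.2% and 63.2%.

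At the start itself the peak profile of the ribosomal protein genes was the same in both lists, and away from it the lists differed in both directions. Over 81 positions from 2000 bp before to 2000 bp after the start, the share was higher with Klf4 at 34, lower at 16 and equal at 31, where 1 of the 49 starts is 2.04%. For the 19 starts of the housekeeping list the share also differed in both directions, higher with Klf4 at 8 positions, lower at 18 and equal at 55. For other genes it was higher with Klf4 at all 81. At the start, 98.0% of the 49 starts were under a peak in each list, and for the other genes the share was 57.2% with the empty vector and 63.2% with Klf4. At 500 bp before the start the ribosomal protein genes had 46.9% and 38.8%, a gap no smaller than at any other position, and the other genes 28.8% and 30.7%. At 1000 bp after the start they had 8.16% in both lists, against 12.1% and 15.4% of other genes.

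The total length under peaks in a gene's window was also similar in both lists at most of these genes. It was 97462 bp (empty vector) and 102716 bp (Klf4) over the 51 windows, with medians of 1769 and 1887 bp. This length measures what was called as a peak and not how high it was. The log2 ratio of covered length, Klf4 over empty vector with 500 bp added to both, had a median of -0.0017 over the 51 genes, and 26 of them lay within 0.1 of 0. Over all protein-coding genes the median was 0.08. The quartiles ran from -0.06 to 0.12 for the ribosomal protein genes and from 0 to 0.46 for all genes.

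Past 1.5-fold, 2 of the 51 genes were higher with Klf4 (3.92%), Rpl10a and Rpl18, against 19.7% of all protein-coding genes, and 0 were lower, against 1.62%. Among genes with equally significant start peaks the share past 1.5-fold was lower than among all genes, while the median stayed near that of all genes. Of 7199 other genes whose empty vector start peak had a −log10 q inside the range of the set, 13.1% were higher and 0.931% lower, with a median log2 ratio of 0.10. Of the 1577 among them whose length also lay inside the range of the set, 10.1% were higher and 0.444% lower, with a median of 0.07. The ribosomal protein genes are short, with a median length of 3352 bp, against 17170 bp for all genes and 5327 bp for these 1577. The Klf4 list is also the longer list. When only the 20000 most significant peaks of each list were kept, 5.13% of all genes were higher and 3.57% lower, and 0 of the 51 were either. The count of 2 higher genes was 0 over the gene body alone, against 19.6% of all genes, 0 within 1 kb of the start, against 9.46%, and 5 with 10 kb on both sides, against 21.1%.

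**Figure D4:**
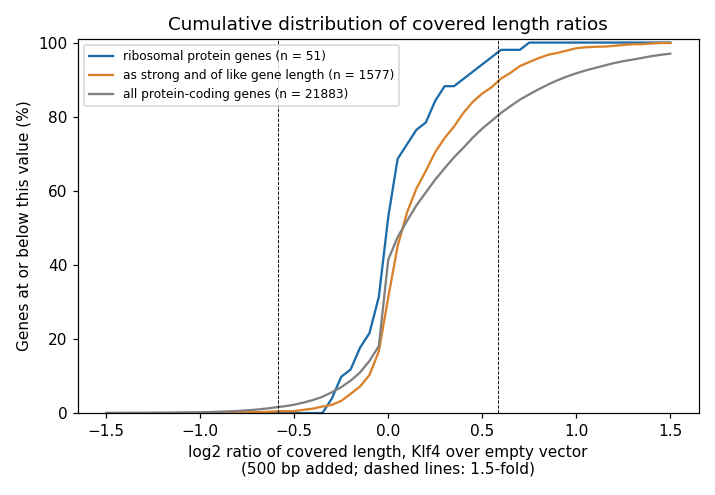
Cumulative share of genes (%) by log2 ratio of covered length, Klf4 over empty vector, with 500 bp added to both lengths, for the 51 ribosomal protein genes, 1577 genes with a start peak as significant and a length in the same range, and all 21883 protein-coding genes. Dashed lines mark 1.5-fold. The blue line rises steeply near 0 and passes the upper dashed line with 2 genes left, Rpl10a at 0.72 and Rpl18 at 0.60.

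Rpl10a, a large subunit protein near the exit site for transfer RNA, had 1496 bp under peaks in the first list and 2796 bp in the Klf4 list, a log2 ratio of 0.72. Its start peak, at chr17:28327626-28329121 and chr17:28327506-28329328, measured 1496 and 1823 bp. A further 2 Klf4 peaks, at chr17:28332891-28333122 and chr17:28334378-28335118, lay beyond the gene and within Tead3, a transcription factor gene. Their −log10 q was 2.02 and 2.94, which placed them at percentiles 7.31 and 16.9 of the Klf4 list.

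Rpl18, another large subunit protein, had 1592 and 2667 bp, a log2 ratio of 0.60. The start peak itself was 817 and 716 bp wide. A peak at the lower end of the body, over the start of the neighbour Sphk2, measured 775 and 860 bp. The added length came mostly from a peak at chr7:45720482-45721269, over the last part of the Rpl18 body and the annotated start of the neighbouring gene Fam83e, with a −log10 q of 13.9, and from a weaker one at chr7:45712275-45712577 with 1.54. The first was the most significant peak of the Klf4 list in these windows that the empty vector list lacked.

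Rpl22, an RNA-binding protein of the large subunit, followed with 1626 and 2586 bp, a log2 ratio of 0.54, while its start peak measured 1016 and 1021 bp. Rps15 had 2245 and 3283 bp, a log2 ratio of 0.46, with a Klf4 peak of −log10 q 6.13 at chr10:80296950-80297739 inside the neighbour Apc2. In these 4 genes the start peak differed by less than the window as a whole.

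The lowest ratios were smaller in size. Rps13, which takes part in a bridge between the subunits, had 1399 bp under empty vector and 993 bp under Klf4, a log2 ratio of -0.35. Rpl30 had 1295 and 953 bp, a ratio of -0.30. Rpl13a, known also for a role outside the ribosome in silencing inflammatory mRNAs, had 2534 and 1975 bp, a ratio of -0.29, and Rpl6 had 1765 and 1362 bp, a ratio of -0.28. The start peaks of Rps13 and Rpl13a were no narrower with Klf4, at 979 and 993 bp and at 1012 and 1025 bp, while those of Rpl30, at 1096 and 953 bp, and Rpl6, at 953 and 904 bp, were narrower.

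**Figure D5:**
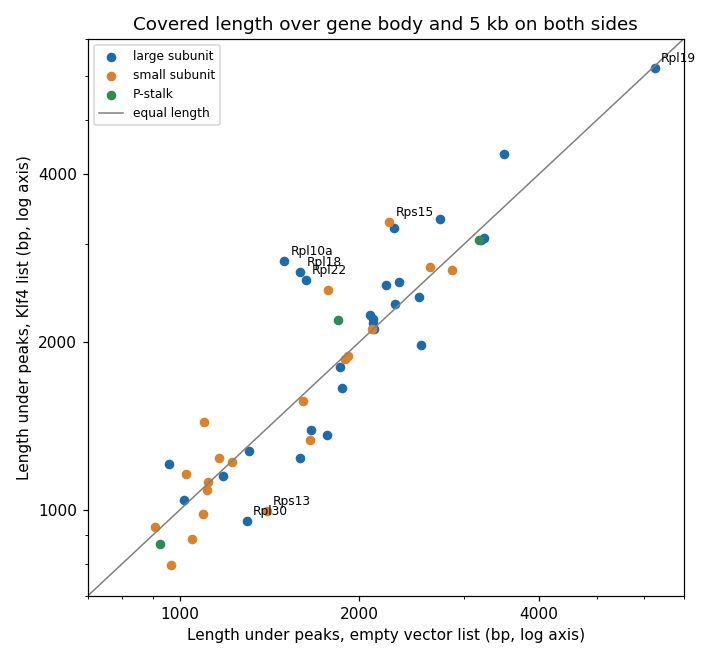
Length under peaks (bp, log axes) over the body and 5 kb on both sides of each of the 51 ribosomal protein genes, with the empty vector on the horizontal axis and Klf4 on the vertical axis, coloured by subunit. The grey line marks equal lengths. Most genes lie along it, Rpl10a, Rpl18, Rpl22 and Rps15 lie above it, and Rps13 and Rpl30 lie below it.

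The windows of the subunits differed in how much sequence was covered, and peaks of neighbouring genes count in these lengths. The median was 2094.5 bp under empty vector and 2215 bp under Klf4 for the 28 large subunit genes, and 1309.5 and 1287 bp for the 20 small subunit genes. Their median log2 ratios were 0.01 and -0.0073, and that of the 3 P-stalk genes was -0.05. Start peaks of genes with an annotated start were closer in width. Their median was 1080 bp under empty vector and 1120.5 bp under Klf4 in the large subunit, and 1025 and 1011 bp in the small subunit. The most covered window was that of Rpl19, with 6267 and 6212 bp, and the least covered with the empty vector was that of Rps28, with 908 and 931 bp. Both windows had nearly the same covered length in both lists.

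Every start peak was found in both lists, and the peaks found in 1 list lay elsewhere in the windows. The windows held 98 empty vector peaks and 105 Klf4 peaks. A peak of the other list overlapped 93 of the 98 (94.9%, 95% Wilson interval 88.6 to 97.8%) and 93 of the 105 (88.6%, 81.1 to 93.3%), against 81.2% and 63.3% of all peaks of the lists. The intervals cover counting error only. All 51 start peaks of the empty vector list and all 50 of the Klf4 list were overlapped, where Rpl3 counts with both of its gene ends in the first list. Of the other peaks, 42 of 47 and 43 of 55 were overlapped.

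With 1 start peak per gene, the 50 start peaks covered 55822 bp under empty vector and 56006 bp under Klf4, with mean widths of 1116 and 1120 bp. The remaining peaks, 48 and 55 in number with the second Rpl3 end peak among them, covered 41640 and 46710 bp, with mean widths of 924 and 910 bp. Of the 47 and 55 peaks not counted as start peaks, 16 and 18 lay over the annotated start of another protein-coding gene. A coding neighbour reached into the window of 39 of the 51 genes, so part of the covered length belongs to neighbours. In 6 genes (Rpl7a, Rpl12, Rpl18, Rps18, Rps27 and Rps28) the start peak also covered the start of a neighbour. Over the 12 genes without such a neighbour the median log2 ratio was -0.02. In 14 genes the window held a single peak in each list, and there the ratio had a median of -0.01 and ran from -0.18 to 0.23.

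Most peaks found in 1 list alone were of low significance, with exceptions beside Rpl18 and Rpl3. The empty vector list had 5, in the windows of Rpl6, Rpl11, Rpl30, Rps7 and Rps13, with −log10 q from 1.22 to 3.40. The Klf4 list had 12, in 10 windows, with −log10 q from 1.54 to 13.9 and a median width of 352 bp. The one beside Rpl18 stood at percentile 69.5 of the Klf4 list. After it, the most significant lay beyond an end of Rpl3, a protein at the peptidyl transferase centre, at chr15:80072101-80073225, with a −log10 q of 10.7 and a percentile of 61.6. That beside Rps15 had 6.13. Rps6, the small subunit protein phosphorylated by S6 kinases, had one of 5.19 at chr4:86851154-86851554. Those of Rps10 and Rpl22 had 3.87 and 2.96. The number of peaks in the window was the same in both lists in 38 genes, greater with Klf4 in 9 and smaller in 4.

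Other genes of the translation machinery and other always-active genes gave similar counts at the start. The other 28 cytosolic ribosomal protein genes that were looked up had a start peak in 17 of 17 with an annotated start, in both lists, and a median log2 ratio of covered length of 0.03. Rpsa, a protein of the small subunit, was the 1 of the 28 that was higher past 1.5-fold, with 1209 and 2257 bp. Translation factors had a start peak in 14 of 14 in both lists and a median ratio of -0.0086. Past 1.5-fold, 3 of 19 translation factors were higher (15.8%) and 0 lower. These were Pabpc1, the poly(A) binding protein, with 1243 and 3164 bp, Eef1g, an elongation factor subunit, with 1287 and 2764 bp, and Eif3k, an initiation factor subunit, with 1992 and 3396 bp. Ribosome biogenesis genes had a start peak in 22 of 22 and a median of 0.08, and 3 of 27 were higher past 1.5-fold (11.1%) and 0 lower. The 3 were Rrp12, Bop1 and Nop58. Values in this list included Bop1, needed to process the large subunit's RNA, with 2823 and 5113 bp, Nop58, a core protein of box C/D small nucleolar particles, with 1517 and 2876 bp, and Ncl, which encodes nucleolin, with 4664 and 3079 bp.

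The housekeeping list, 24 genes such as Gapdh, Ppia and Polr2a, had a start peak in 18 of 18 in both lists and a median log2 ratio of -0.0048, close to that of the ribosomal protein genes. Its windows spread more widely. There 3 of 24 were higher past 1.5-fold (Actb, Gpi1 and Reep5) and 2 lower (Emc7 and Vcp), against 2 and 0 of 51. The median length of its genes was 16875 bp, against 3352 bp.

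Lists of genes restricted to other tissues or cell types gave mixed values. In a list of 20 genes of varied tissues, none of the 16 with an annotated start had a start peak with the empty vector and 5 had one with Klf4. In covered length 11 of the 20 were higher past 1.5-fold, against 19.7% of all protein-coding genes, and 0 were lower, and the median log2 ratio was 0.77. Myh7, a myosin of heart and slow muscle, had 774 and 5324 bp, and Krt14, a keratin of basal epidermis, had 779 and 3121 bp. The marker lists of other cell types did not all follow. Past 1.5-fold, 1 of 6 acinar genes was higher (median log2 ratio 0), 1 of 4 mesenchyme genes (0.13), 0 of 4 macrophage genes (0.0046) and 3 of 3 endothelial genes (1.14). The difference between the lists of genes was not tested.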

How the data were processed

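The data were 2 merged broadPeak lists, 1 for each plasmid, from 8 ATAC-seq libraries of MIN6 cells. FastQC, Bowtie2, MACS2, DiffBind and the build mm10 are named in the submitters' processing notes, without versions. How the libraries were merged, and how reads were filtered or shifted, is not given in the sources used here. Besides an ATAC-seq kit, the labels name a library kit made for mRNA-seq, and how it was used on these libraries is not stated. For each peak the authors deposited a score (not used), a fold enrichment, a −log10 p-value and a −log10 q-value. These values were used only to describe, rank and filter peaks within their list. The smallest deposited −log10 q was 1.02 with the empty vector and 1.00 with Klf4.

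Gene bodies, annotated starts and promoter letters came from RefSeq tables of GRCm38.p6. Peaks on chromosomes 1 to 19, X and Y were kept, 100099 of 100264 and 128538 of 128726. The length under peaks was counted over each gene body and 5 kb on both sides, and log2 ratios used 500 bp added to both lengths. With 1 list per plasmid there was no test. A gene was called higher or lower past 1.5-fold. Overlap meant at least 1 bp. Strand was taken from the promoter table, which gave starts for 17491 of 21883 protein-coding genes.

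The genes named are the top 5 and bottom 5 by start peak −log10 q with the empty vector, the top 4 and bottom 4 by ratio of covered length, those without a start peak, and those with the 6 most significant peaks found in 1 list alone. The genes farthest from the median of other lists may be named too, and further genes were chosen after their values were seen, among them Rpl5, Rpl11, Rplp1, Rplp2, Rpl12, Rpl19, Rpl7a, Rps24, Rps28, Eif3k, Rrp12, Ncl and Krt14. Members and lists were chosen with earlier results of these data known. Of 20 translation factor names 19 were found in the table. Alternatives were other windows, thresholds, lengths added, rankings and overlaps. The computation was tested on simulated data, where 194 of 194 changed windows and 0 unchanged ones were called among 2000. Scripts ran under Python 3.11.15 with pandas 2.3.3, numpy 2.4.6, matplotlib 3.10.9 and scipy 1.17.1.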

Additional observations from a re-analysis of the deposited data

How the results depend on the processing

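Of 51 alternative values, 37 stayed the same, that is, within 1.5 times for a count, within 0.1 for a median log2 ratio and within the 95% Wilson interval for a share and within the quartiles over genes for a percentile, and 14 moved. Some of these values had little or no room to move. A wider window cannot lose a peak, and a limit of 2-fold cannot raise a count of 0. All 51 genes kept a peak in the window and 50 a start peak in both lists under every alternative run. The median log2 ratio of covered length ran from -0.02 to 0.02, and no gene was lower past 1.5-fold under any of them. Of all genes, 0.219% (at 2-fold) to 3.57% (with the 20000 most significant peaks) were lower under these alternatives. At such small shares a count of 0 of 51 says little about the set. The count of genes higher past 1.5-fold, 2 in the report, was 0 with the gene body alone, 0 within 1 kb of the start, 0 with peaks limited to a −log10 q of 5 or more (17.4% of all genes), 0 with the 20000 most significant peaks of each list, 0 at 2-fold (8.30% of all genes), and 5 with 10 kb on both sides (Rps15, Rpl10a, Rplp0, Rplp1 and Rpl22). With 100 bp added it was 3 (Rpl10a, Rpl18 and Rpl22), against 23.4% of all genes. The overlapped share of empty vector peaks was 97.8% under that −log10 q limit and 100% with the 20000 peaks, and that of Klf4 peaks 94.7% and 100%. The same shares over all peaks were not counted, so these values show nothing particular to the set. The median percentile of the start peak, 94.6 and 96.1 by −log10 q, was 88.1 and 91.3 by fold enrichment and 83.7 and 82.4 by width. The cause was not tested. The 41 genes with an annotated start, as an alternative chosen after seeing the data, gave a median of -0.0017, and the reference genes with start peaks as significant were also chosen after seeing the data. No paired analysis was possible because each plasmid has 1 merged list and no value per library, and for the same reason no replicate could be left out. Unknown depth limits every count of weak peaks.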

Other observations

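Ribosomal protein genes have many processed pseudogenes, copies of their mRNA inserted elsewhere in the genome without the promoter. The gene table names 150 such copies of 39 of the 51 genes. In contrast to the genes themselves, 4 of the 150 (2.67%, 95% Wilson interval 1.04 to 6.66%) were under a peak in each list, and 2 of these were shared. Of 156 named copies of other ribosomal protein genes, 0.641% were under a peak of the empty vector list and 1.28% under one of the Klf4 list. Of 9646 other pseudogenes, 5.80% and 7.62% were. These are longer, with a median of 926 bp against 624 bp for the 150 copies, and the shares were not adjusted for length. Among the 150 copies, the one with the most significant peak was Rps16-ps2, which lies inside the receptor gene Adgrd1. Its peak had a −log10 q of 10.7 with the empty vector and 5.09 with Klf4. Reads from near-identical copies can be lost or misplaced in alignment, and how such reads were treated is not given in the sources used here, so these shares and the genes' own exonic coverage are uncertain.

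Paralogs of ribosomal protein genes fell into groups. Rpl22l1, Rps27l, Rpl36al and Rpl7l1 had a start peak in both lists, with −log10 q of 161.1, 172.4, 141.5 and 76.0 with the empty vector. Rpl10l and Rpl39l, which are expressed mainly in testis, had no peak in their windows in either list. Rpl3l, a paralog of Rpl3 in heart and skeletal muscle, had no start peak in either list and 1818 and 1970 bp under peaks elsewhere in its window. In addition, 19 of the 51 genes host 37 small nucleolar RNA genes, which guide the modification of ribosomal RNA, within their bodies.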
